A study of Mus musculus with 10 samples.

Results

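A set of 38 genes of DNA replication and mitosis was followed through the ovarian tumors of a mouse model: 10 of replication, 26 of mitosis, and the tubulin regulator Stmn1 with the chromatin protein Hmgb2. They were named as a gene module by function, with earlier results of these data known. All 38 were found in the tumor tables, among 18476 entries of the gene column. By the labels, tumors were induced in C57BL/6 mice by electroporating the epithelium of the fallopian tube with plasmids for Cas9, a guide RNA and Cre, so every tumor shares that procedure. DNA came from 8 formalin-fixed tumors and was sequenced to a mean depth of 1.25 to 2.24 reads over the bins. Of these, 4 were labelled PAX8-positive, Lkb1-deleted tumors 1 and 4 and Lkb1-intact tumors 2 and 3. The other 4 were labelled PAX8-negative, Lkb1-deleted tumors 2, 3 and 5 and Lkb1-intact tumor 1. PAX8 is a transcription factor of the tubal epithelium, and Lkb1 is a kinase that restrains growth. Other edited genes, ages and the build of the plasmids are not given in the sources used here. Ascites cells of 1 mouse, with red blood cells removed, were profiled by single-cell RNA sequencing, and they share a tumor number with Lkb1-deleted tumor 1.

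A cell copies its DNA once in S phase and parts the copies in M phase. In S phase the MCM helicase opens the double helix, PCNA clamps the polymerase to it, and enzymes such as ribonucleotide reductase supply nucleotides. In mitosis cyclin and CDK1 drive entry, Aurora and Polo kinases build the spindle, checkpoint proteins wait for every kinetochore to attach, and CDC20 with UBE2C lets the anaphase-promoting complex destroy cyclin B. Transcription of the early genes depends largely on E2F factors, which bind variants of one short motif. Transcription of the late genes depends on the DREAM and MuvB complexes at the cell cycle homology region (CHR), often with NF-Y at CCAAT boxes.

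The promoters are shown first because these motifs differed in their shares between the roles, though not in every gene. RefSeq promoters of GRCm38.p6 run from 250 bases before the start of a transcript to 50 after it, 300 in all, and 32 of the 38 genes had one. Each sequence is 5′ to 3′ on the strand of its gene, and capitals mark motif matches on either strand. The letters of the CHR were TTTGAA. Those of the NF-Y box were CCAAT. For E2F they were TTTGGCGC, TTTCGCGC or TTTCCCGC. Position 0 is the first transcribed base. The first 5 are the 2 replication and 3 mitosis genes that stood highest among the ascites markers of dividing cells; Mcm6 and Cdk1 were added after the matches were seen.
Rrm2: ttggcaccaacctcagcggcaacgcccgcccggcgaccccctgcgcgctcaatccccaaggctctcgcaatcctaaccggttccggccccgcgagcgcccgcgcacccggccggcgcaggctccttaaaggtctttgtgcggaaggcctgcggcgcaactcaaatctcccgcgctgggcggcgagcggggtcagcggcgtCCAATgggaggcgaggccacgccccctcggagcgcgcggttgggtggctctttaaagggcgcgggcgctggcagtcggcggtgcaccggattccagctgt
Tk1: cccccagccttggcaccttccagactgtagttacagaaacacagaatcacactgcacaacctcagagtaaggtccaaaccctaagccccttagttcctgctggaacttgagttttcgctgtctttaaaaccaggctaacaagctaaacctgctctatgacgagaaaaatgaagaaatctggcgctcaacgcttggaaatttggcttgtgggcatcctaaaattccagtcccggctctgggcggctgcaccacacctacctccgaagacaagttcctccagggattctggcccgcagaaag
Birc5: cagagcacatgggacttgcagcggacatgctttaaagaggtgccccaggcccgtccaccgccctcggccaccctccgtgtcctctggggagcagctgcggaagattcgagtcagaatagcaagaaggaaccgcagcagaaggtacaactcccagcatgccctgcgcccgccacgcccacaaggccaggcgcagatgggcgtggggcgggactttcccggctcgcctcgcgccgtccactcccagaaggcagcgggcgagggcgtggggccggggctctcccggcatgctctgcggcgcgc
Ube2c: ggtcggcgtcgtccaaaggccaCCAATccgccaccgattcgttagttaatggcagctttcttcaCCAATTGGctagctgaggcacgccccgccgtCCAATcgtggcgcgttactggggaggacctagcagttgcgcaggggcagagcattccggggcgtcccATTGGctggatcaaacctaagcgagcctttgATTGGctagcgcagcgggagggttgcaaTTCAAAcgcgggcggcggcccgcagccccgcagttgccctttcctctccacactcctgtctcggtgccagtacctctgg
Cenpa: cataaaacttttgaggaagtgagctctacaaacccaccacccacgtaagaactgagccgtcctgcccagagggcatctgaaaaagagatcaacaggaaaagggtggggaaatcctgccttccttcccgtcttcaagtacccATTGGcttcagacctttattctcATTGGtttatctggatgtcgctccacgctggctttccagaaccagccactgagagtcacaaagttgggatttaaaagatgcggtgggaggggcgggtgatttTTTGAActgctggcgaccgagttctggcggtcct
Mcm6: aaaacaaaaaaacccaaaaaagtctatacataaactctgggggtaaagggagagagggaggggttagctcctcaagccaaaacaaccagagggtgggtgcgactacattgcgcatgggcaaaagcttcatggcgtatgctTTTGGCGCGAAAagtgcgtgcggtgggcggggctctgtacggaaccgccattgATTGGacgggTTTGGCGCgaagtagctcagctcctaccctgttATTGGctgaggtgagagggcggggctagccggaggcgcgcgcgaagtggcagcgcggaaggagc
Cdk1: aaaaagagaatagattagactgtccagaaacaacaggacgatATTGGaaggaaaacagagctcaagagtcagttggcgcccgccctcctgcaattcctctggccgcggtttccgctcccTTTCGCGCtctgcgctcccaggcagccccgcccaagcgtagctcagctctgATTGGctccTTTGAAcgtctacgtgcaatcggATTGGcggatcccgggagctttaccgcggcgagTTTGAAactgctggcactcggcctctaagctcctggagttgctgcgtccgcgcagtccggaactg

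Rrm2 encodes the small subunit of ribonucleotide reductase, and its promoter (chr12:24708004-24708303, plus strand) held a single CCAAT box at -50. Tk1, thymidine kinase (chr11:117825965-117826264, minus strand), and Birc5, the survivin subunit of the chromosomal passenger complex (chr11:117848987-117849286, plus strand), held none of the letters searched. Ube2c, the ubiquitin-conjugating enzyme of the anaphase-promoting complex (chr2:164769679-164769978, plus strand), held a CHR on the opposite strand at -29 and 6 CCAAT matches, of which a pair overlapped in 1 palindrome at -186. Cenpa, the centromeric histone H3 (chr5:30666636-30666935, plus strand), held a CHR at 16 and CCAAT boxes at -109 and -86. Mcm6, a helicase subunit (chr1:128359656-128359955, minus strand), held E2F matches at -110, -106 and -47, the first 2 overlapping on opposite strands. Cdk1, the kinase of mitotic entry (chr10:69352863-69353162, minus strand), held an E2F match at -131 beside CHR matches at -71 and -15.

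Mitosis promoters carried the CHR in 17 of 22 (77.3%), against 1 of 9 replication promoters (11.1%, Mcm2) and 20.2% of 27025 genes with a promoter. The replication promoters carried an E2F match in 4 of 9 (44.4%), Mcm3, Mcm5, Mcm6 and Mcm7, against 1 of 22 mitosis promoters (4.55%, Cdk1) and 2.12% of all genes. CCAAT boxes were common to both roles, in 20 of 22 mitosis promoters (90.9%) and 7 of 9 replication promoters (77.8%), beside 41.1% of all genes. A CHR together with a CCAAT box stood in 77.3% of mitosis promoters, 11.1% of replication promoters and 7.97% of all genes. Each match describes letters and is not a bound site, and the shares were not tested.

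**Figure D1:**
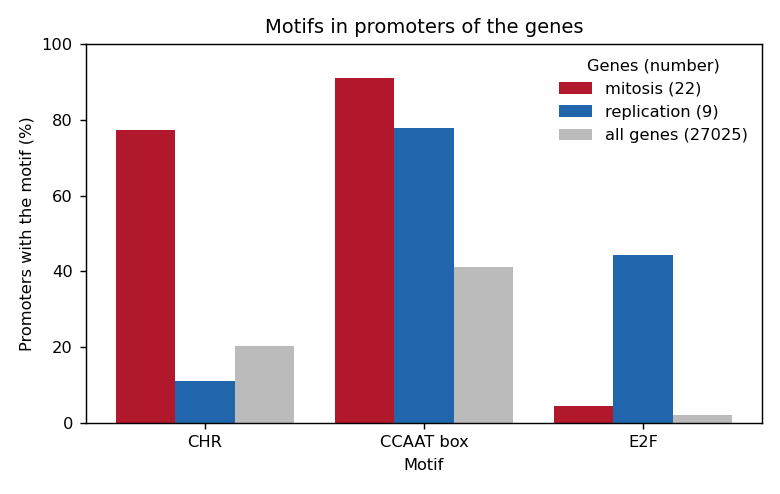
Share of RefSeq promoters (y axis, percent) that hold each motif (x axis) in mitosis genes (red), replication genes (blue) and all genes (grey), with the number of genes in the legend. The CHR stands in 77.3% of mitosis promoters and 11.1% of replication promoters, and the E2F motif in 4.55% and 44.4%.

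In the ascites, 12 of the 26 mitosis genes and 2 of the 10 replication genes were deposited markers of a cluster that the authors named Dividing cells, a difference between roles that was not tested. The authors' deposited table lists markers of 9 clusters by an average log fold change, read as a natural log, against the other cells. No value under 0.50 is listed, a 1.65-fold difference, so a gene left out may still differ by less. The authors' deposited table lists 16 of the 38 genes, all in Dividing cells, where they make up 14.3% of 112 markers. Adjusted p-values in the authors' deposited table are the p-values times 54949, read here as the number of features. Of that number, 0.204% were markers of this cluster. Features not detected in these cells may be counted in it, so the share among features tested may be higher. The sources used here do not say how doublets were treated, and their part in these lists was not tested. The library is 1 sample, so no difference between clusters could be tested across mice.

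Of the 10 replication genes, the authors' deposited table lists Rrm2 at 0.85 and Tk1 at 0.65 in Dividing cells. Both supply nucleotides. None of the 6 Mcm helicase genes, nor Pcna nor the thymidylate synthase gene Tyms, is listed in any of the 9 clusters.

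The 12 mitosis genes that the authors' deposited table lists in Dividing cells had a median of 0.74. Birc5 led at 1.21 and Ube2c followed at 1.17 in the authors' deposited table. Cenpa stood at 0.91 and Top2a, the topoisomerase that untangles sister chromosomes, at 0.89 in the authors' deposited table. For the cyclins, the authors' deposited table gives Ccnb2 at 0.83 and Ccna2 at 0.68. Cdca3, which takes part in the destruction of the mitotic inhibitor WEE1, had 0.75 and the spindle protein gene Nusap1 had 0.72 in the authors' deposited table. Cdca8, which encodes borealin of the passenger complex, stood at 0.66 and Cdc20 at 0.57 in the authors' deposited table. The lowest of the 12 were Cenpf and Cdk1, each at 0.52 and close to the lowest value listed. Ccnb1, Mki67, Plk1, Aurka and Aurkb, the spindle checkpoint genes Bub1, Bub1b and Ttk, the motor genes Kif11, Kif20a, Kif23 and Cenpe, and the spindle genes Prc1 and Tpx2 are not listed in any cluster.

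Stmn1, which encodes a protein that destabilises microtubules, was the highest of the 38 in Dividing cells at 1.48 in the authors' deposited table. Hmgb2 had 1.15 there. These 2 genes and 2 of mitosis were the only ones listed in a second cluster. The authors' deposited table gives Hmgb2 at 1.24 in Monocytes, Stmn1 at 0.53 in Tumor cells, and Ube2c at 0.99 and Nusap1 at 0.59 in Erythrocytes. In the authors' deposited table these clusters hold 0.439%, 1.04% and 0.0692% of the same 54949 features as markers. The Erythrocytes list the beta-globin gene Hbb-bs at 5.94 in the authors' deposited table. All 6 neutrophil markers looked for are listed in Monocytes, a name that is the authors', led by Retnlg at 4.04 in their deposited table. Tumor cells list 8 of 10 epithelial and tumor markers, without Cldn4 and tdTomato. They also list 1 of 6 fibroblast markers, Dcn at 2.33 in the authors' deposited table. Stmn1 was the sole one of the 38 genes listed there. The other 5 clusters, both of Macrophages, B-cells, T-cells and CAFs, list none.

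**Figure D2:**
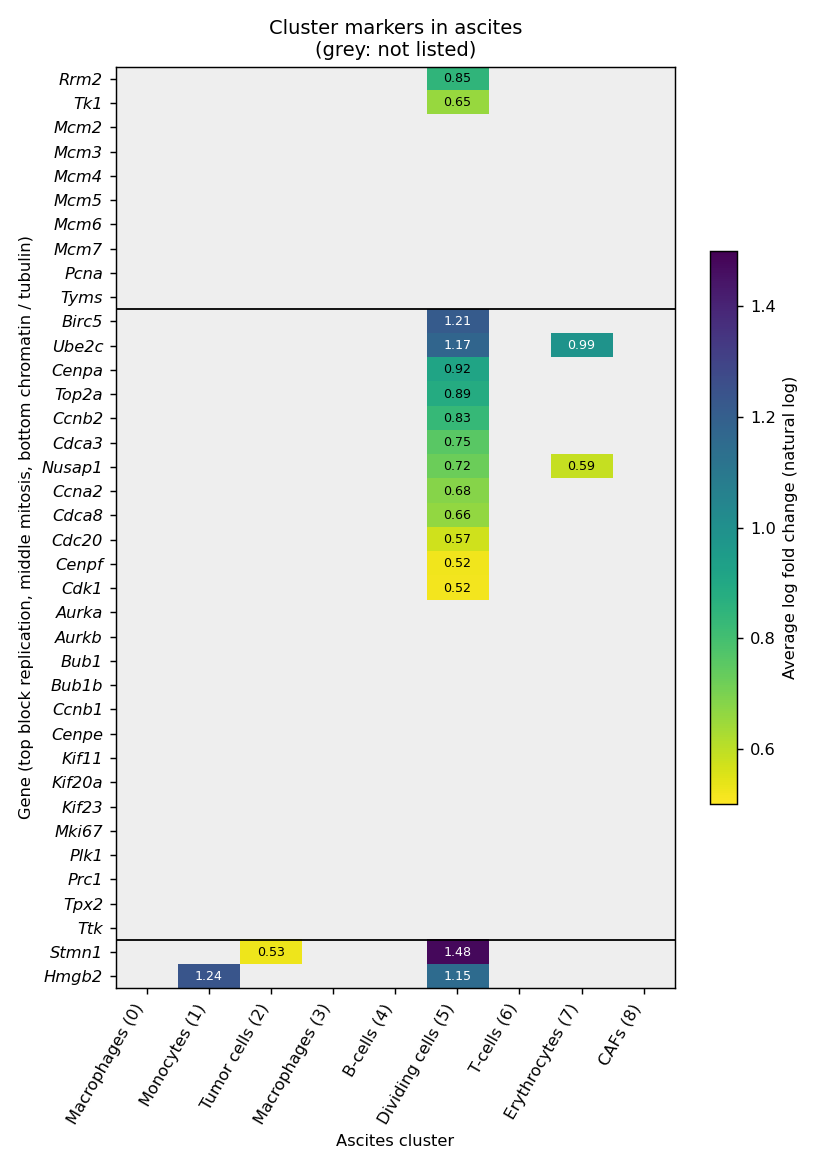
Average log fold change (natural log, colour and number) of the 38 genes (rows) as markers of the 9 ascites clusters (columns) in the authors' deposited table, with grey for genes not listed. In Dividing cells 16 genes are listed and 4 entries stand outside it, while the Mcm genes are grey throughout.

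Few further replication and mitosis genes were listed, and most of the chromatin and tubulin genes were. Dividing cells list 2 of 32 further replication genes, the PCNA partner Pclaf at 1.35 and the dUTPase gene Dut at 0.54 in the authors' deposited table. They list 5 of 55 further mitosis genes, led in the authors' deposited table by the CDK subunit genes Cks1b at 0.93 and Cks2 at 0.75 and the condensin gene Smc4 at 0.67. They list 9 of 10 further chromatin, tubulin and Ran genes, led in the authors' deposited table by Hmgn2 at 1.29, Tubb5 at 1.25 and H2afz at 1.24. Several of these are also listed elsewhere, Hmgn2 and Tubb5 both in CAFs and in Tumor cells. Of the further mitosis genes, the authors' deposited table also gives Cks1b at 0.80 in CAFs and Cks2 at 0.82 in Monocytes. For Cks2 that is above its value in Dividing cells. Spc25 is given at 0.52 in CAFs in the authors' deposited table and is not listed in Dividing cells.

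The cluster also carried markers of dendritic and of immature myeloid cells. In the authors' deposited table it lists 6 of 8 markers of Xcr1-type dendritic cells, from Wdfy4 at 0.52 to Irf8 at 1.20, with Xcr1 itself at 0.97, and 0 of 10 epithelial or tumor, 6 macrophage, 6 neutrophil, 4 B cell, 6 T cell, 6 erythroid and 6 fibroblast markers. Flt3 and Cadm1 are the 2 dendritic markers not listed. Chosen after their values were seen, the histone gene Hist1h2ap led the cluster at 2.18, and genes of immature myeloid cells were listed, Elane at 1.32, Ms4a3 at 0.90, Ctsg at 0.73 and Mpo at 0.70 in the authors' deposited table. The part of these cells in the values of the 38 genes was not tested.

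In tumor DNA none of the 38 genes passed the test between labelled groups. By bins within 1 Mb, 3 PAX8-positive tumors shared gains around Aurka, Tpx2 and Ube2c, all on distal chromosome 2, and losses around Ccnb1. In these tumors, Lkb1-deleted 1 and 4 and Lkb1-intact 2, such bins were past 0.2 or below -0.2 for 40.5%, 51.8% and 45.8% of all entries. The authors' log2 copy ratio is given per bin, a stretch of a gene with a median length of 18627 bp, and the median over the bins of a gene stands for it here. Values past 0.2 are called gained, values below -0.2 lost, and either is altered. A gene has its own bins in 29 cases, while 9 share bins with neighbouring genes (Mcm7, Tk1, Ccna2, Cdc20, Cdca8, Kif20a, Nusap1, Prc1 and Ube2c). The 26 genes with 1 bin rest on little sequence. The noise of a single bin, a robust SD worked out from the differences between neighbouring bins, was 0.158 to 0.255. Each gene is therefore also given by its neighbourhood, the median of all 23 to 107 bins within 1 Mb. The sources used here give no share of tumor cells per sample, so fewer tumor cells and a smaller copy change cannot be told apart. Values stand in the order Lkb1-deleted 1, Lkb1-deleted 4, Lkb1-intact 2 and Lkb1-intact 3 for PAX8-positive tumors, and Lkb1-deleted 2, 3 and 5 and Lkb1-intact 1 for PAX8-negative tumors.

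Altered members numbered 20, 27, 20 and 15 of 38 in the PAX8-positive tumors, against 8, 10, 8 and 16 in the PAX8-negative tumors. The groups overlapped by 1 gene, between PAX8-positive Lkb1-intact tumor 3 and PAX8-negative Lkb1-intact tumor 1. The means were 20.5 ± 4.93 in PAX8-positive tumors and 10.5 ± 3.79 in PAX8-negative tumors (SD, n = 4 each). The noise of a single bin, near the threshold of 0.2, also differed between the labels. It was 0.23, 0.22, 0.24 and 0.23 in PAX8-positive tumors, against 0.19, 0.16, 0.16 and 0.26 in PAX8-negative tumors. Mean depth was 1.25, 1.43, 1.57 and 1.43, against 1.66, 2.06, 2.24 and 1.31. The part of noise in these own-bin counts was not tested. Over all entries 56.5%, 59%, 57.8% and 50.5% were altered in the PAX8-positive tumors, against 37.4%, 26.6%, 30.5% and 43.8% in the PAX8-negative tumors. As shares, the 38 genes stood at 52.6%, 71.1%, 52.6% and 39.5% in PAX8-positive tumors and 21.1%, 26.3%, 21.1% and 42.1% in PAX8-negative tumors, below all entries in 7 of 8 tumors. By Lkb1 the mean was 14.6 ± 8.53 (SD, n = 5) in Lkb1-deleted tumors and 17 ± 2.65 (SD, n = 3) in Lkb1-intact tumors. Over all entries the mean share altered was 42 ± 14.9% in Lkb1-deleted tumors and 50.7 ± 7% in Lkb1-intact tumors (SD, n = 5 and 3). PAX8-positive tumors made up 2 of the 5 Lkb1-deleted and 2 of the 3 Lkb1-intact tumors.

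By neighbourhood the labels parted further. Altered members numbered 11, 17, 16 and 9 in PAX8-positive tumors, against 2, 0, 3 and 0 in PAX8-negative tumors, a mean of 13.25 ± 3.86 against 1.25 ± 1.5 (SD, n = 4 each). The background moved the same way, with 40.5%, 51.8%, 45.8% and 27.9% of all entries altered in PAX8-positive tumors and 8.97%, 0.904%, 8.11% and 2.71% in PAX8-negative tumors.

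**Figure D3:**
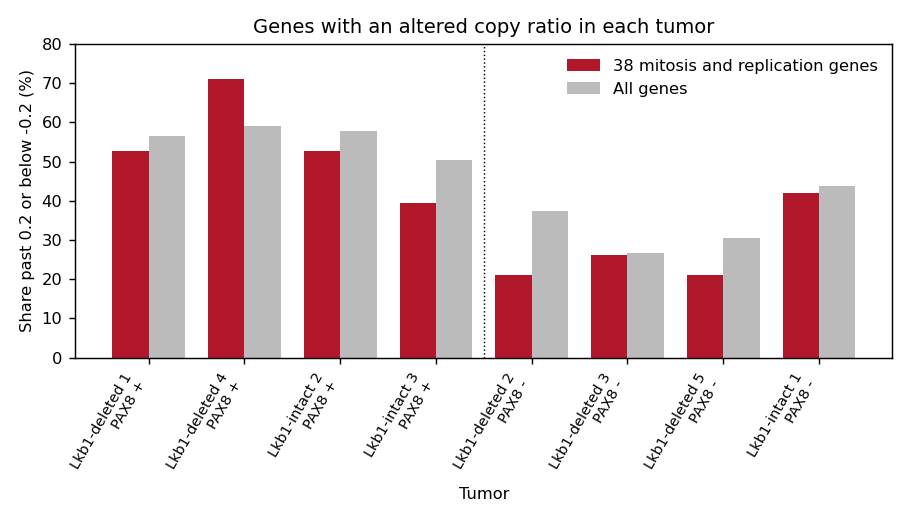
Share (y axis, percent) of the 38 genes (red) and of all genes (grey) past 0.2 or below -0.2 by their own bins in each tumor (x axis), PAX8-positive left of the dotted line and PAX8-negative right of it. Lkb1-deleted tumor 4 is highest for the 38 genes at 71.1%, and in the other 7 tumors the red bar is below the grey one.

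Replication genes first. Rrm2 (chr12:24708254-24714146) was lost in 7 of 8 tumors by its own bin, the lowest mean of the 38 at -0.54. Its log2 ratios were -0.40, -0.71, -0.22 and -0.36 in PAX8-positive tumors, against -0.64, -0.17, -1.13 and -0.72 in PAX8-negative tumors. The groups overlapped, and the lowest tumor was Lkb1-deleted 5. The neighbourhood of Rrm2 stood at -0.81, -0.29, 0.01 and -0.08 in PAX8-positive tumors, against -0.05, 0.00, -0.14 and -0.09 in PAX8-negative tumors. Around Rrm2, then, 2 tumors were past the threshold, Lkb1-deleted 1 and 4.

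Pcna (chr2:132249286-132253180) was lost in 5 of 8 tumors by its own bin. Pcna had log2 ratios of -0.35, 0.23, -0.58 and -0.97 in PAX8-positive tumors, against 0.16, -0.43, -0.41 and 0.15 in PAX8-negative tumors. Both groups held a high and a low tumor. The neighbourhood of Pcna lay between -0.09 and 0.03 in all 8 tumors.

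The Mcm genes did not move as a block. Mcm4 (chr16:15623897-15637400) had log2 ratios of -0.48, 0.14, -0.07 and 0.06 in PAX8-positive tumors, against -0.09, -0.18, -0.29 and -0.35 in PAX8-negative tumors. Its neighbourhood stood at -0.09, 0.32, 0.43 and 0.27 in PAX8-positive tumors, against -0.10, 0.03, -0.22 and 0.09 in PAX8-negative tumors, so 3 PAX8-positive tumors were gained around it and none of the PAX8-negative ones. The neighbourhood of Mcm5 stood at -0.37, 0.14, 0.23 and 0.27 in PAX8-positive tumors, against 0.06, 0.01, 0.01 and 0.19 in PAX8-negative tumors. Mcm6 had its sole neighbourhood gain, 0.40, in PAX8-negative Lkb1-deleted tumor 5. The neighbourhoods of Mcm2 and Tyms were altered in 0 of 8 tumors.

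Among mitosis genes, Birc5 (chr11:117849237-117855743) was gained by its own bin in 8 of 8 tumors, the highest mean at 0.39. Its log2 ratios were 0.26, 0.54, 0.28 and 0.71 in PAX8-positive tumors, against 0.38, 0.27, 0.37 and 0.28 in PAX8-negative tumors. The neighbourhood of Birc5 stood at -0.01, 0.29, -0.07 and 0.55 in PAX8-positive tumors, against 0.10, 0.01, 0.02 and 0.06 in PAX8-negative tumors. The gain reached beyond the gene in Lkb1-deleted tumor 4 and Lkb1-intact tumor 3. Tk1 (chr11:117815519-117826087) lies next to Birc5 and shares its neighbourhood. Tk1 had log2 ratios of 0.12, 0.27, -0.02 and 0.58 in PAX8-positive tumors, against -0.06, 0.00, 0.19 and 0.34 in PAX8-negative tumors. Both genes were thus gained in those 2 tumors by their own bins and by their neighbourhood.

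By neighbourhood the 3 mitosis genes of distal chromosome 2 were gained in the same tumors. Tpx2 (chr2:152847964-152895321) encodes the spindle protein that activates Aurora A, Aurka (chr2:172356190-172370886) that kinase, and Ube2c lies between them (chr2:164769929-164772902). The neighbourhood of Aurka stood at 0.26, 0.26, 0.45 and -0.13 in PAX8-positive tumors, against 0.02, -0.02, -0.03 and 0.04 in PAX8-negative tumors. The neighbourhood of Tpx2 stood at 0.22, 0.30, 0.38 and 0.00 in PAX8-positive tumors, against 0.04, 0.00, 0.06 and -0.04 in PAX8-negative tumors. That of Ube2c stood at 0.26, 0.30, 0.42 and 0.02 in PAX8-positive tumors, against 0.06, 0.00, 0.03 and 0.10 in PAX8-negative tumors. Of the PAX8-positive tumors, 3 were gained at all 3 genes, and PAX8-positive Lkb1-intact tumor 3 at none. By own bins Aurka had log2 ratios of 0.56, 0.36, 0.54 and 0.03 in PAX8-positive tumors, against 0.14, 0.01, 0.00 and 0.46 in PAX8-negative tumors. Those of Tpx2 were 0.27, 0.24, 0.58 and 0.02 in PAX8-positive tumors, against 0.11, -0.06, 0.06 and 0.37 in PAX8-negative tumors. For both genes PAX8-negative Lkb1-intact tumor 1 was thus gained too by own bins and lay within the range of the gained PAX8-positive tumors. The shared bin of Ube2c had log2 ratios of 0.30, 0.54, 0.22 and -0.07 in PAX8-positive tumors, against -0.10, 0.17, 0.16 and 0.17 in PAX8-negative tumors, with none of the PAX8-negative tumors gained. The other members of chromosome 2, Bub1b, Nusap1, Bub1 and Pcna, lie nearer the centromere and had no neighbourhood gain in any tumor.

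Ccnb1, cyclin B1 (chr13:100778739-100786486), was lost by its own bin in 5 of 8 tumors. Ccnb1 had log2 ratios of -1.16, -0.29, -0.85 and 0.05 in PAX8-positive tumors, against 0.23, -0.32, 0.01 and -0.28 in PAX8-negative tumors. The 2 lowest tumors were PAX8-positive, and the groups overlapped. The neighbourhood of Ccnb1 stood at -0.45, -0.40, -0.40 and -0.07 in PAX8-positive tumors, against -0.10, 0.00, -0.04 and 0.07 in PAX8-negative tumors. The same 3 PAX8-positive tumors that were gained at Aurka were lost here, and Lkb1-intact tumor 3 stayed inside the threshold.

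Cdc20, the activator of the anaphase-promoting complex (chr4:118432901-118437343, in a bin shared with Elovl1), was lost in 5 tumors by that bin. Cdc20 had log2 ratios of -0.69, -0.10, -0.76 and -1.12 in PAX8-positive tumors, against -0.50, -0.20, -0.14 and -0.04 in PAX8-negative tumors. The neighbourhood of Cdc20 stood at -0.10, -0.10, -0.55 and -0.20 in PAX8-positive tumors, against -0.19, 0.01, -0.06 and -0.04 in PAX8-negative tumors. The value of -1.12 in Lkb1-intact tumor 3 had no counterpart of that size around it.

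Stmn1 (chr4:134468320-134473843) spanned the widest range of the 38, 1.60 on the log2 scale. Its log2 ratios were -0.11, -0.24, -0.39 and -1.29 in PAX8-positive tumors, against -0.60, 0.31, -0.67 and 0.22 in PAX8-negative tumors. Its neighbourhood was lost in Lkb1-intact tumor 2 at -0.32, Lkb1-deleted tumor 2 at -0.21 and Lkb1-deleted tumor 5 at -0.43, and stood at -0.12 in Lkb1-intact tumor 3. Hmgb2 (chr8:57511843-57515999) had log2 ratios of -0.90, 0.63, 0.29 and 0.31 in PAX8-positive tumors, against -0.09, -0.24, 0.33 and -0.11 in PAX8-negative tumors. The neighbourhood of Hmgb2 was lost in Lkb1-deleted tumor 1 at -0.57 and gained in Lkb1-intact tumors 2 and 3 at 0.29 and 0.23.

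**Figure D4:**
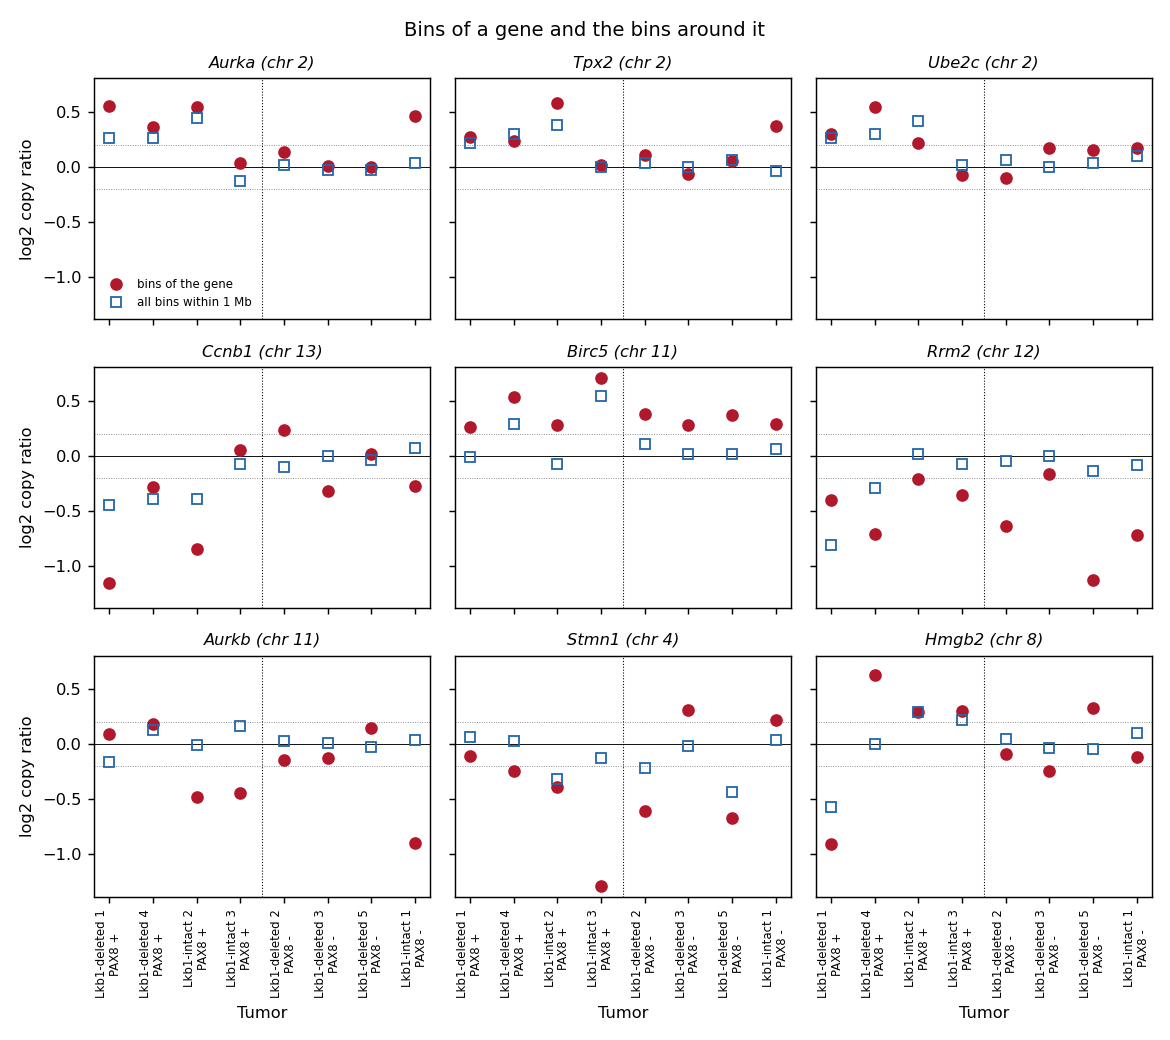
Log2 copy ratio (y axis) of 9 genes in each tumor (x axis), by the bins of the gene (filled circles) and by all bins within 1 Mb (open squares), PAX8-positive left of the dotted line; grey lines mark 0.2 and -0.2. At Aurka, Tpx2 and Ube2c the squares of 3 PAX8-positive tumors lie above 0.2, at Ccnb1 below -0.2, and at Birc5, Rrm2, Aurkb and Stmn1 many circles stand away from their squares.

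The sources used here do not name what the ratio was taken against, so a value common to most tumors, as at Birc5 and Rrm2, cannot be told apart from one that lies in the denominator. In all, 1 member was gained and 5 were lost in at least 5 of 8 tumors by own bins, where 6.77% of all entries were gained and 11.8% lost so often. By neighbourhood 0 members were gained and 0 lost in at least 5 tumors, beside 0.216% and 0.649% of all entries. All 6 recurrent members, and the 4 that passed below -1 in a tumor (Rrm2, Ccnb1, Cdc20 and Stmn1), have bins that cover under 10 kb. Among all 5672 entries of that size, own bins departed from the neighbourhood with a robust SD of 0.386, against 0.216 in the 3323 entries of 10 to 20 kb and 0.118 in the 9337 entries of 20 kb and more. The 10 members under 10 kb departed by 0.382 (root mean square), the 11 of 10 to 20 kb by 0.182 and the 17 longer ones by 0.14.

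**Figure D5:**
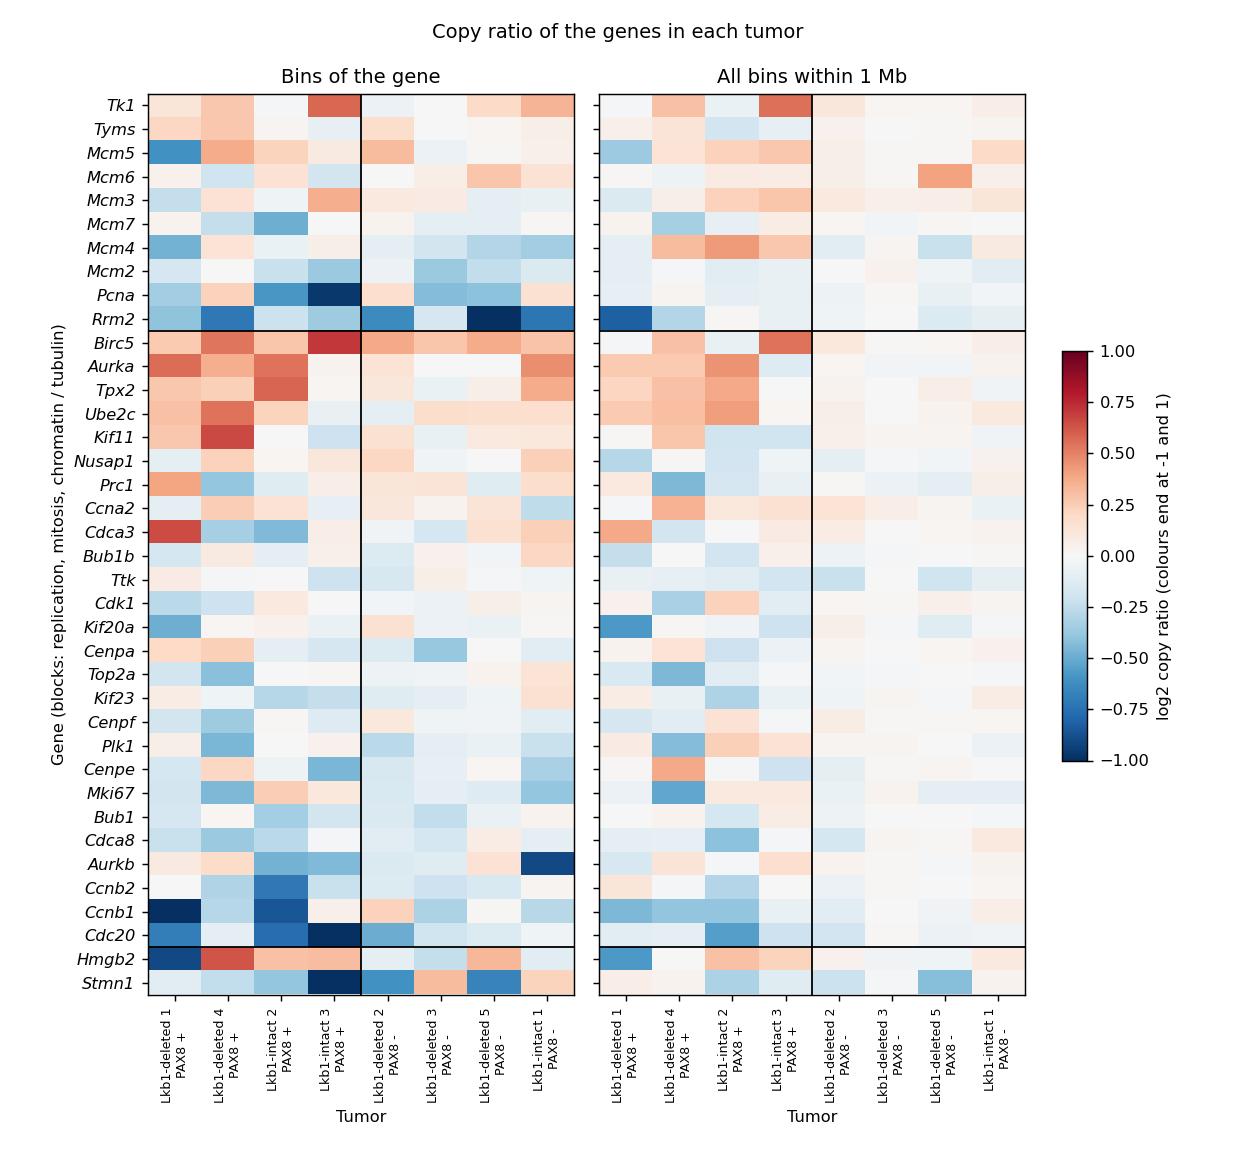
Log2 copy ratio (colour, blue lost and red gained) of the 38 genes (rows, by role and mean) in the 8 tumors (columns), by the bins of the gene (left panel) and by all bins within 1 Mb (right panel). A black line parts PAX8-positive tumors at the left from PAX8-negative tumors at the right; in the right panel the 4 PAX8-negative columns are near 0 with 3 altered genes at most.

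PAX8 status was compared with limma across all entries, with Benjamini-Hochberg adjustment. In all, 0 of 18332 entries (0%) and 0 of the 38 genes were called at an adjusted p of 0.05, while 1235 entries and 0 members had an unadjusted p under 0.05. An exact permutation test also called 0 entries, with 679 at an unadjusted p under 0.05. Positive differences numbered 19 and negative ones 19 among the 38, with a median of -0.01 beside -0.03 over all entries. The lowest p was that of Cdc20, -0.67 ± 0.42 in PAX8-positive tumors and -0.22 ± 0.20 in PAX8-negative tumors (SD, n = 4 each), a difference of -0.45 (SE 0.21, limma p = 0.0589, adjusted p = 0.749; exact permutation p = 0.114). No member had groups without overlap, beside 3.7% of entries.

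By neighbourhood limma again called 0 entries by PAX8 status, with 1365 at an unadjusted p under 0.05. Ccnb1 averaged -0.33 ± 0.17 in PAX8-positive tumors and -0.02 ± 0.07 in PAX8-negative tumors (SD, n = 4 each), a difference of -0.31 (SE 0.10, limma p = 0.0109, adjusted p = 0.518; exact permutation p = 0.0571). Mcm4 averaged 0.23 ± 0.22 in PAX8-positive tumors and -0.05 ± 0.14 in PAX8-negative tumors (SD, n = 4 each), a difference of 0.28 (SE 0.12, limma p = 0.0371, adjusted p = 0.638; exact permutation p = 0.0857). The distal chromosome 2 genes differed by 0.20 to 0.21, with limma p = 0.0605 for Tpx2, 0.0674 for Ube2c and 0.101 for Aurka, an adjusted p of 0.668 for each, and exact permutation p = 0.114, 0.114 and 0.143. Without Lkb1-intact tumor 3, a fit made after seeing the data, 715 of 18476 entries were called (26 higher and 689 lower in PAX8-positive tumors). Of the 38 genes 1 was called, Ccnb1, with a difference of -0.40 (limma adjusted p = 0.0236). The tumor left out was the PAX8-positive one that lacked the loss around Ccnb1, so its removal favours this call and lends it no support. No member's groups parted without overlap by neighbourhood, beside 3.36% of entries.

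Lkb1 status called 5 of 18332 entries (0.0273%), 4 higher and 1 lower in Lkb1-deleted tumors, and 0 of the 38 genes. By limma 1207 of the 18332 entries had an unadjusted p under 0.05. Of the 38 genes, only Aurkb, the Aurora kinase of the passenger complex (chr11:69045624-69051664), was among them. Its log2 ratios were 0.09, -0.14, -0.12, 0.18 and 0.15 in Lkb1-deleted tumors 1 to 5, against -0.90, -0.48 and -0.45 in Lkb1-intact tumors 1 to 3. The groups did not overlap, which held for 5.51% of all entries. The difference was 0.64 (SE 0.15, limma p = 0.00184, adjusted p = 0.354; exact permutation p = 0.0357, the smallest that 5 against 3 tumors allow). It rested on 1 bin of 6017 bp. The neighbourhood of Aurkb averaged 0.00 ± 0.11 in Lkb1-deleted tumors and 0.07 ± 0.09 in Lkb1-intact tumors (SD, n = 5 and 3), a difference of -0.07 (limma p = 0.512; exact permutation p = 0.357).

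By neighbourhood 0 entries were called by Lkb1 status, with 571 at an unadjusted p under 0.05, and by exact permutation 0 were called with 873. Both members of chromosome 8 had lower values in Lkb1-deleted tumors without passing the test. Hmgb2 averaged -0.12 ± 0.25 in Lkb1-deleted tumors and 0.21 ± 0.10 in Lkb1-intact tumors (SD, n = 5 and 3; limma p = 0.0359, adjusted p = 0.958; exact permutation p = 0.0357). Mcm5 averaged -0.03 ± 0.19 in Lkb1-deleted tumors and 0.23 ± 0.04 in Lkb1-intact tumors (SD, n = 5 and 3; limma p = 0.0476, adjusted p = 0.958; exact permutation p = 0.0357). Hmgb2, Mcm5, Mcm3 and Kif11, 4 members, had groups without overlap, beside 4.73% of entries. Mcm3 averaged 0.03 ± 0.10 in Lkb1-deleted tumors and 0.21 ± 0.08 in Lkb1-intact tumors (SD, n = 5 and 3). Kif11 went the other way, 0.08 ± 0.11 in Lkb1-deleted tumors and -0.14 ± 0.10 in Lkb1-intact tumors (SD, n = 5 and 3). An interaction of both labels was also fitted with limma. Only 1 tumor was PAX8-negative and Lkb1-intact, so that fit cannot decide whether the Lkb1 effect differed between PAX8 labels.

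The further genes of these pathways gave no call by own bins either. By limma, 0 of 30 tested replication entries, 0 of 54 mitosis entries and 0 of 10 chromatin, tubulin and Ran entries were called by PAX8 status or by Lkb1 status.

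Copy number regions that the authors inferred from the ascites RNA held 7 of the 38 genes by RefSeq position, all in the group of cells named malignant_2. The share of all genes inside such regions was not worked out, so this count is not read as a result about the 38. Regions of a state above 3, read as gain, held Top2a, Ccna2, Ccnb2, Cenpe, Ttk and Hmgb2, and a region of a lower state held Plk1. The authors' own gene list for these regions names 3 of the 7, Top2a, Ccnb2 and Hmgb2. The states of the others rest on position alone. In the DNA of Lkb1-deleted tumor 1, whose number the ascites carries, the neighbourhoods of the 6 genes in gain regions stood at -0.15 for Top2a, -0.02 for Ccna2, 0.12 for Ccnb2, 0.01 for Cenpe, -0.08 for Ttk and -0.57 for Hmgb2. None was past 0.2, and Hmgb2 was below -0.2. That of Plk1 stood at 0.08.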

How the data were processed

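Low-coverage genome sequencing of 8 tumors and single-cell RNA sequencing of 1 ascites sample were used. The normal fallopian tube and uterus sample was not analysed here. Per the submitters' processing notes, BWA, Picard, Cell Ranger and Seurat 2.3.4 were used with GRCm38. The authors deposited a log2 copy ratio and a depth, a coverage signal, for each of 59640 bins per tumor. The sources used here do not name the denominator of that ratio. From the authors also come deposited cluster markers with an average log fold change, read as a natural log as in that Seurat version, and p-values, and ascites copy number regions with a state score. Date-like marker names (6) were not used.

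Bins of depth 0 (7 to 50 per tumor) were set to missing. A feature is an entry of the gene column on 1 chromosome, valued by the median of its bins; 18332 of 18476 had a value in every tumor. The authors' gene table of the ascites regions gives positions that overlap the RefSeq gene of the same name for 73 of 1495 entries, so regions were matched to RefSeq positions. Groups were compared with limma 3.58.1 in R 4.3.3, two-sided, with Benjamini-Hochberg adjustment over all entries; exact permutation was two-sided. limma was tested on simulated data. Python 3.11.15, numpy 2.4.6, pandas 2.3.3, scipy 1.17.1 and matplotlib 3.10.9 did the rest. Nothing in the labels says beyond the tumor numbers that tumors came from separate mice, so p-values measure the spread between these samples. Low depth limits the precision of single bins.

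The members and lists were chosen with earlier results of these data known. Values in each tumor are given for members with an unadjusted p under 0.05, past 0.2 in 1 direction in 5 tumors or more, past 1 or below -1 in a tumor, or with the extreme mean or range. Mcm4, Mcm5, Tk1, Tpx2, Aurka, Ube2c and Hmgb2 were added after the values were seen, most from the fit over bins within 1 Mb. Alternatives were other thresholds, centring, model terms, bins within 1 Mb, filters and each tumor left out.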

Additional observations from a re-analysis of the deposited data

Results flagged for a closer look

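Of the 117 groups of 4 or 5 tumors examined, 3 held a tumor far from the others by Dixon's criterion, which chance alone meets in about 1 in 20. Plk1 stood at -0.46 in Lkb1-deleted tumor 4, while the nearest other PAX8-positive tumor stood at 0.00, and its neighbourhood in that tumor stood at -0.43. Mki67 stood at -0.45 in Lkb1-deleted tumor 4, while the nearest other Lkb1-deleted tumor stood at -0.19, and its neighbourhood in that tumor stood at -0.52. Ube2c stood at -0.10 in Lkb1-deleted tumor 2, while the other PAX8-negative tumors stood at 0.16 or more, and its neighbourhood in that tumor stood at 0.06.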

How the results depend on the processing

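No paired analysis was possible because the labels number no replicates; endings of the tumor numbers recur across groups, their meaning is not given, and they entered as a covariate. In Lkb1 status the 5 called genes became 2 with PAX8 as a second term, 0 with the number ending as a covariate, 0 over bins within 1 Mb, 0 with trended and robust variance, 3 and 1 among genes with at least 2 and 4 bins, 2 with bins of depth 0 kept and 0 by exact permutation; leaving out a tumor gave 0 to 14. By PAX8 status it gave 0 to 1. Over bins within 1 Mb, leaving out a tumor gave 0 to 715 genes and 0 to 1 members by PAX8 status and 0 to 9 genes by Lkb1 status. By own bins no member was called under any alternative of either comparison that tests members; genes with at least 4 bins include none. The Aurkb difference by Lkb1 status reversed to -0.068 over bins within 1 Mb and was 0.49 to 0.72 with each tumor left out. By own bins the Mcm5 difference by Lkb1 status was -0.11. That own-bin difference reversed to 0.038 without Lkb1-deleted tumor 1, whose own bin stood at -0.60. Altered members averaged 26.25 at a threshold of 0.1 and 12 at 0.3 in PAX8-positive tumors, against 22.25 and 5.75 in PAX8-negative tumors, and 13.25 against 1.25 over bins within 1 Mb. They averaged 24.6 at 0.1 in Lkb1-deleted tumors, and 23.67 at 0.1, 10 at 0.3 and 8.333 over bins within 1 Mb in Lkb1-intact tumors. The shares of all entries at 0.1 and 0.3 were not worked out, so those averages are not read as a result about the members. At an average log fold change of at least 0.7 and 1, Dividing cells list 10 and 4 members, of which 1 and 0 of replication and 7 and 2 of mitosis, and other clusters list 2 and 1. A cut on the share of cells was not run, since no share is used here. On the given strand alone CCAAT stood in 63.6% of mitosis promoters, and CHR with CCAAT in 40.9% of mitosis and 0.0% of replication promoters; the 200 bases nearest the start also gave 0.0% for the last. The cause of these changes was not tested.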
